A study of Homo sapiens with 6 samples.

Results

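Satellite RNA was set against satellite DNA, locus by locus, in a mouse xenograft of SW620, a human colon cancer cell line derived from a lymph node metastasis. The comparison takes the 2 xenograft libraries, 1 of RNA and 1 of DNA, out of 6 libraries in the series, and all 9566 satellite loci of 24 RepeatMasker families listed for them. The other 4 libraries are RNA and DNA of the same line grown in 2D culture before and after the xenograft, in RPMI1640 medium with 10% FBS. The tumour grew under the skin of a Nu/Nu mouse, an athymic strain that lacks mature T cells but keeps its other cells, so that tumour material can hold mouse RNA and DNA. The sources used here do not give the number of tumours or animals behind each library, nor how mouse reads were handled. RNA came from a TRIzol purification and was sequenced by the Helicos digital gene expression protocol, which reads single molecules without PCR. DNA came from a DNeasy kit and was read by the DNA protocol of the same platform. Each side is 1 library, so differences below carry counting error only and no p-value is given. The table lists satellites and no genes, so neither the cell line nor the share of mouse cells could be checked against marker genes.

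Satellite DNA is made of short units repeated head to tail in arrays at centromeres, in the heterochromatin beside them and near some telomeres. Most of it is packed in silent chromatin, but some families are transcribed in cancer cells, and HSATII (human satellite II) of the pericentromeres is known for its RNA in epithelial tumours. Copy number varies between families, and an RNA level alone does not show how much RNA there is per copy. The ratio of RNA to DNA at each locus sets the RNA against the copies sequenced from the same kind of tumour.

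Levels are in RPM, the reads at a locus for each 1000000 reads of its library. The authors deposited RPM, and whole reads were recovered from it. The xenograft RNA library held 1077925 reads and the xenograft DNA library 3231173 reads. A single read was worth 0.928 RPM in RNA and 0.309 RPM in DNA, so a locus with no read could hold up to 2.78 RPM in RNA or 0.928 RPM in DNA, taking 3 reads as the limit. Satellites took 78581 RNA reads and 319346 DNA reads, or 72900 RPM of RNA and 98833 RPM of DNA. The RNA to DNA ratio of all satellites together was 0.738 (95% interval 0.732 to 0.743). The intervals of ratios are exact conditional binomial (Clopper-Pearson) intervals on reads. They cover counting error only and treat each count as a separate read. A read that matches several loci may be counted at each, and the intervals are then too narrow. In a bulk tumour, fewer cells of a type and less RNA per cell cannot be told apart. An RNA and a DNA library are made by different protocols, so the size of a ratio depends on the reads counted in each total. Ratios of loci and families are therefore also set against 0.738, the value of all satellites.

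Xenograft RNA followed xenograft DNA closely across the satellites. Among the 433 loci with at least 20 RPM of DNA, the RNA and DNA levels correlated with Pearson's r of 0.954 on the log2(RPM + 5) scale and Spearman's rho of 0.894. These loci share 2 libraries and some reads, and long arrays are high in both, so the correlation is a description. All 433 loci had RNA reads. The 10 loci with the most reads held 36.4% of satellite reads in RNA and 35.3% in DNA, and 9 of the 10 were the same loci. RNA and DNA reads were both found at 4098 of the 9566 loci, RNA alone at 302 and DNA alone at 2339. A locus without an RNA read never had more than 36 DNA reads, and a locus without a DNA read never had more than 11 RNA reads. The 9093 loci under 20 RPM in both libraries had a summed ratio of 0.710 (0.697 to 0.724), close to the 0.743 (0.737 to 0.750) of the other 473. The labels name no DNase step for the RNA, and the part of genomic DNA in the RNA library was not tested.

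**Figure D1:**
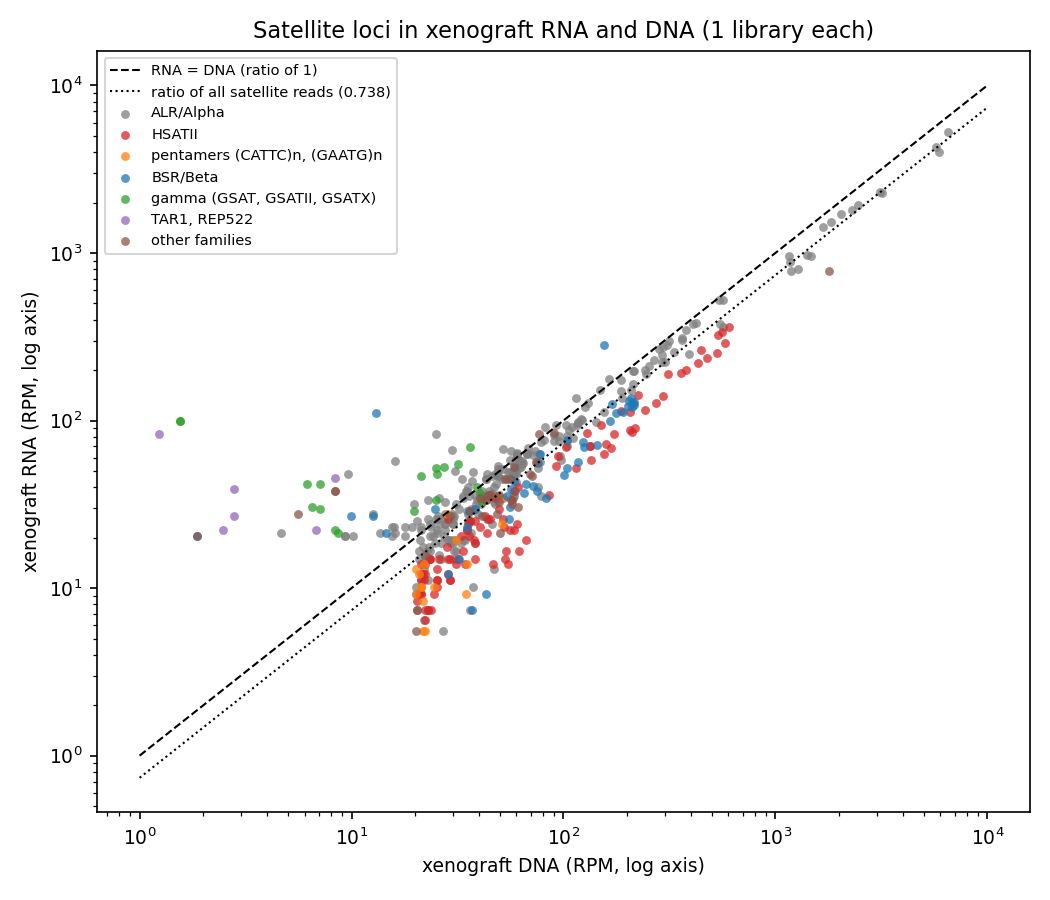
Xenograft RNA against xenograft DNA in RPM on log axes, with 1 point for each of 473 loci (20 RPM or more on either side), coloured by family. Most points run along the diagonal at or below equality. HSATII (red) lies mostly under the line of all satellites (0.738), and a few gamma satellite, TAR1 and REP522 loci lie far above it.

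HSATII, SAR and the pentamer repeats had the 4 lowest ratios among families with at least 100 DNA reads. HSATII stood at 6908 RPM in RNA (7446 reads, 6752 to 7066, exact Poisson interval) and 13066 RPM in DNA (42219 reads, 12942 to 13191), a ratio of 0.529 (0.516 to 0.542). This is 0.717 times the ratio of all satellites, so HSATII was a smaller part of satellite RNA (9.48%) than of satellite DNA (13.2%). SAR, listed at a single locus on chromosome 8 (43092746 to 43097520, hg19, plus strand), was lower still at 0.438 (0.407 to 0.471), with 843 RNA reads against 5770 DNA reads. The pentamer repeats (CATTC)n and (GAATG)n, which spell the same unit on opposite strands and resemble HSATII in sequence, were at 0.567 (0.542 to 0.594) and 0.607 (0.581 to 0.633). HSATI stood apart from these at 0.836 (0.713 to 0.977), from 207 RNA reads and 742 DNA reads.

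Centromeric alpha satellite (ALR/Alpha), the repeat on which the kinetochore assembles, supplied most reads on both sides: 52602 RPM in RNA and 66549 RPM in DNA, 72.2% and 67.3% of satellite reads. Its ratio of 0.790 (0.783 to 0.798) was above that of HSATII and above the 0.629 (0.620 to 0.638) of all other families together. Beta satellite (BSR/Beta), found on the acrocentric chromosomes and in pericentromeres, was at 0.706 (0.681 to 0.731). The acrocentric ACRO1 was close to it at 0.717 (0.667 to 0.771). SATR1, SATR2 and the macrosatellite SST1 lay at 0.814 (0.733 to 0.903), 0.741 (0.649 to 0.844) and 0.767 (0.697 to 0.843). CER was lower at 0.652 (0.587 to 0.723), and D20S16 and MSR1, with 50 and 30 RNA reads, were at 0.700 (0.504 to 0.957) and 0.624 (0.407 to 0.931). In all, 14 of the 24 families had intervals wholly below 1. When scaled to satellite reads, the ratios of ALR/Alpha, HSATI, SATR1, SATR2 and SST1 turned above 1. That of HSATI did so also under TMM and size factors. Of these, only ALR/Alpha had an interval wholly above 1, at 1.07 (1.06 to 1.08) when scaled to satellite reads. The count of 14 fell to 6 when scaled to satellite reads, where the intervals of HSATI, SATR1, SATR2, SST1, ACRO1, D20S16 and MSR1 held 1. It fell to 8 under TMM and under size factors. These scalings shift every log2 ratio up by 0.44, 0.28 and 0.26.

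The 5 families with intervals above 1 were the gamma satellites and the subtelomeric repeats TAR1 and REP522. Gamma satellites are GC-rich pericentromeric repeats, and TAR1 is a telomere-associated repeat. GSATX had 228 RPM in RNA against 34.0 RPM in DNA, a ratio of 6.70 (5.33 to 8.47). GSATII was at 1.60 (1.48 to 1.73), from 974 RNA reads and 1825 DNA reads, and GSAT at 1.25 (1.03 to 1.52). TAR1 and REP522 were at 1.85 (1.56 to 2.19) and 1.52 (1.32 to 1.74). Single loci decided several of these values. Without its 2 loci with the most RNA, GSATX was at 0.959 (0.623 to 1.44), REP522 at 0.9003 (0.757 to 1.07) and GSAT at 0.934 (0.725 to 1.19). After the same cut TAR1 was at 1.33 (1.09 to 1.61) and GSATII at 1.57 (1.44 to 1.71). TAR1, however, had 3 loci that reached 20 RPM, all through RNA alone. These 3 held 95 of its 225 RNA reads and 26 of its 365 DNA reads, and TAR1 without all 3 was not computed. The other 5 families had intervals that held 1: HSAT4 at 0.871 (0.679 to 1.11), HSAT5 at 0.889 (0.592 to 1.31), LSAU at 0.781 (0.560 to 1.07), HSAT6 at 0.535 (0.161 to 1.40) and SUBTEL_sa at 0.999 (0.0190 to 12.4). HSAT6 and SUBTEL_sa had only 5 RNA reads and 1 RNA read.

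Single loci were compared as log2 of (RNA RPM + 5) over (DNA RPM + 5) among the 473 loci that reached 20 RPM in RNA, DNA or both. RNA was at least 2-fold higher than DNA at 25 loci (5.29%) and at least 2-fold lower at 53 (11.2%), and the median log2 ratio was −0.39. Set against satellite reads in place of all reads, the split turned to 44 higher and 13 lower. The minimum itself shapes the tails. Of 40 loci that reached 20 RPM through RNA alone, 23 were higher and 0 lower; of 101 that reached it through DNA alone, 0 were higher and 30 lower. Among the 332 at 20 RPM in both libraries, 2 were higher and 23 lower.

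HSATII, a family with 99 of the 473 loci, supplied 34 of the 53 lower loci and 0 of the 25 higher ones. All 99 HSATII loci tested had a ratio below 1, from 0.254 to 0.912, and 88 had intervals wholly below it. DNA alone brought 43 of the 99 to the minimum, which places their ratio below 1, and the other 56 reached it in both libraries. Of those 56, 18 were at least 2-fold lower, 52 had intervals below 1 and the highest ratio was 0.912. Over all 99, the median log2 ratio was −0.88, against −0.39 over all loci, with an SD of 0.29 against 0.74. For 84 of the 99 the interval held the family's own ratio of 0.529, whereas 11 lay below it and 4 above. Of 255 alpha satellite loci, 60 had a ratio above 1, 16 of them loci that reached the minimum through RNA alone. Their range was 0.205 to 5.03, and 194 intervals held the family's ratio. The SD of the log2 ratio was 0.27 over the 150 alpha arrays longer than 10000 bp, which is close to that of HSATII, and 0.55 over the 98 of 2000 to 10000 bp. Of the 255, 5 were at least 2-fold higher and 6 lower.

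**Figure D2:**
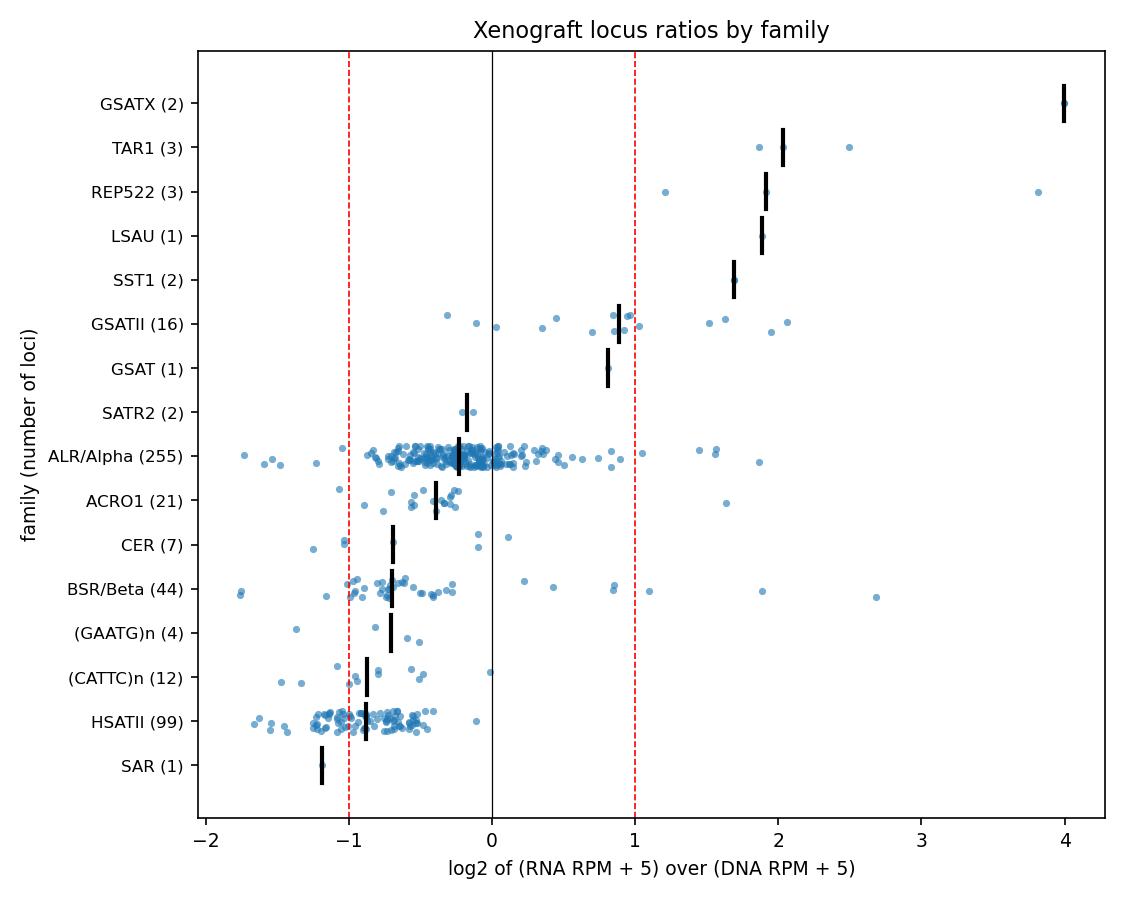
Log2 of (RNA RPM + 5) over (DNA RPM + 5) for each of the 473 loci (points), by family with the number of loci in brackets. Black bars are medians, red dashed lines mark 2-fold, and HSATII loci (median −0.88) all lie below 0 while GSATII loci (median 0.89, with 7 of 16 at the minimum through RNA alone) lie mostly above it.

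The HSATII locus with the most RNA also had the most DNA. It was on chromosome 10 (42598547 to 42601361, minus strand, 2815 bp) with 362 RPM in RNA and 605 RPM in DNA, a ratio of 0.598 (0.535 to 0.667). Its neighbours at 42384182 to 42385776 and 42390899 to 42393252 had 336 and 322 RPM in RNA against 560 and 535 RPM in DNA, with ratios of 0.599 and 0.602. These 3 loci thus had the same ratio within counting error. Per kb of locus, the locus at 42384182 was the highest, with 211 RPM in RNA and 351 RPM in DNA, against 129 and 137 RPM in RNA and 215 and 227 RPM in DNA for the others. The chromosome 16 locus with the most DNA (46394533 to 46398167, plus strand, 3635 bp) had 289 RPM in RNA and 576 RPM in DNA, a ratio of 0.501 (0.443 to 0.565).

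By chromosome, HSATII was lowest on 16 at 0.478 (0.461 to 0.496; 3237 RNA and 20293 DNA reads), and the interval lay wholly under those of chromosomes 2, 7 and 10. Those stood at 0.548 (0.505 to 0.594), 0.588 (0.527 to 0.656) and 0.578 (0.555 to 0.602), with intervals that overlap. Chromosomes 22, 3 and 1, with 103, 66 and 30 RNA reads, were at 0.548 (0.440 to 0.678), 0.653 (0.493 to 0.855) and 0.686 (0.446 to 1.03). Within chromosome 16 the ratio differed by position. Joining loci less than 1000000 bp apart, the 91 HSATII loci of the block from 46385804 to 46500494 were at 0.466 (0.448 to 0.484) and the 65 of the block from 32244265 to 35285796 at 0.638 (0.564 to 0.721). On chromosome 10 the 30 loci between 42354938 and 43187807 were at 0.584 (0.560 to 0.608), and the 17 between 38014904 and 39154933 at 0.458 (0.365 to 0.568), with intervals that just overlap. On chromosome 2 the 2 blocks overlapped, at 0.549 (0.496 to 0.606) and 0.547 (0.476 to 0.626). Loci starting at 90386674 and 91608162, 1 in each block, had equal lengths and equal counts in every library, as did those at 90392257 and 91613745. The same reads may be counted in both blocks, so these blocks may not be separate.

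The lowest HSATII ratios came from a set of equal-length loci. On chromosome 16 between 46387837 and 46424100, 6 loci are each 322 bp long, 5 of them on the plus strand. All 6 were at least 2-fold lower in RNA, with ratios of 0.254 to 0.312 and a summed ratio of 0.284 (0.230 to 0.348) from 103 RNA and 1087 DNA reads. The other 150 HSATII loci of chromosome 16 were at 0.489 (0.471 to 0.508). The length was singled out after the values were seen, and loci this alike may share reads. The locus at 46405596 to 46405917, had 16.7 RPM in RNA against 61.9 RPM in DNA, a ratio of 0.270 (0.157 to 0.437).

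Alpha satellite ran by chromosome from 0.685 (0.643 to 0.729) on chromosome 10 to 0.958 (0.873 to 1.05) on chromosome 3, over 25 chromosomes and contigs with at least 100 DNA reads. Chromosome X was at 0.725 (0.709 to 0.741), and its interval lay below those of chromosomes 7, 11, 2 and 12. These stood at 0.829 (0.803 to 0.855), 0.819 (0.791 to 0.849), 0.846 (0.815 to 0.877) and 0.931 (0.888 to 0.976). HSATII and alpha satellite shared 10 blocks, 5 of them with at least 100 DNA reads of each. In these 5 alpha satellite was the higher: 0.685 (0.643 to 0.729) against 0.584 for HSATII on chromosome 10, 0.870 (0.827 to 0.915) against 0.638 in the lower-numbered block of chromosome 16, and 0.846 (0.815 to 0.878) against 0.547 (0.476 to 0.626) on chromosome 2. In the 2 shared blocks of chromosome 7, alpha satellite was at 0.841 (0.779 to 0.908) and 0.827 (0.798 to 0.856), against 0.672 (0.484 to 0.917) and 0.578 (0.514 to 0.649) for HSATII. The intervals overlapped in the first of these chromosome 7 blocks and were apart in the others.

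**Figure D3:**
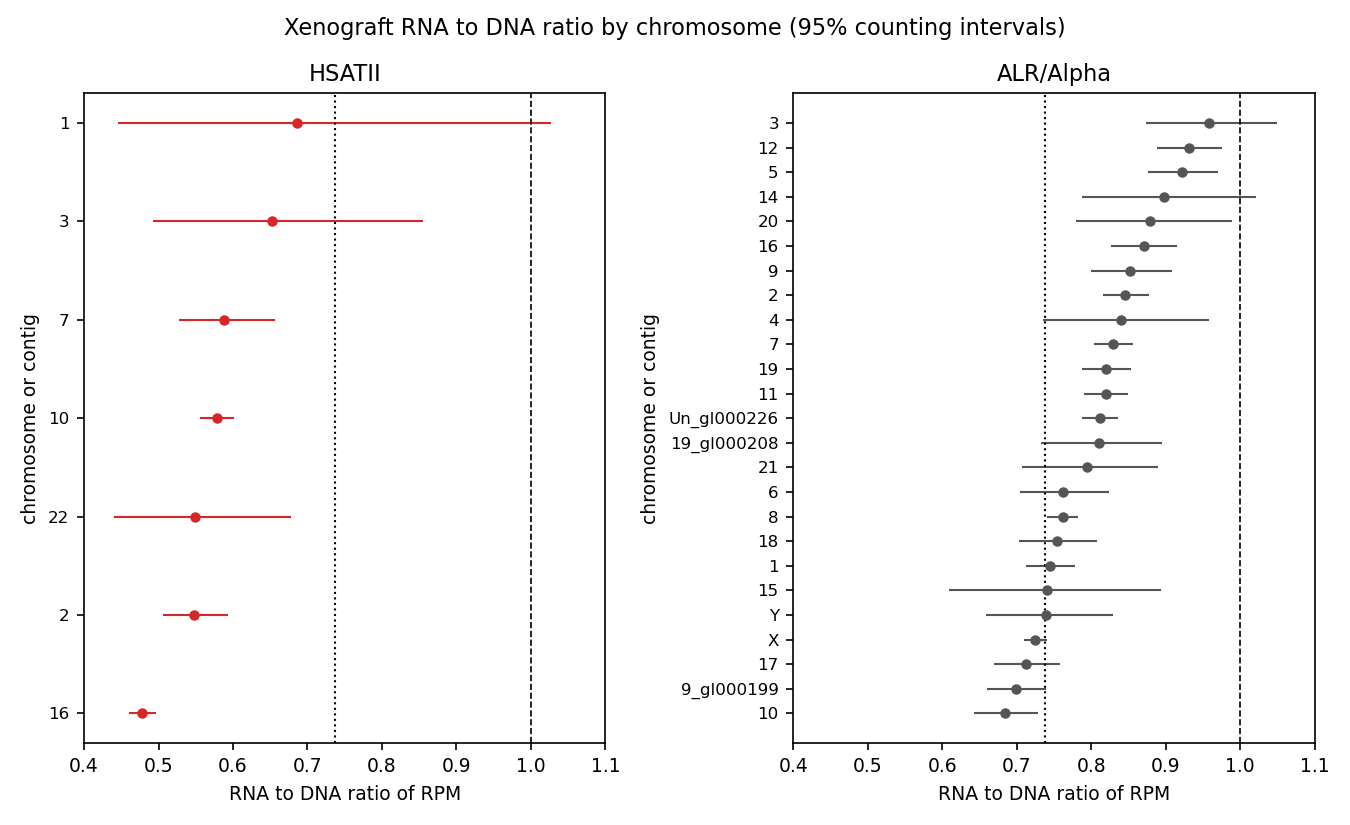
RNA to DNA ratio of summed RPM in the xenograft with 95% counting intervals, by chromosome or contig with at least 100 DNA reads, for HSATII (left) and ALR/Alpha (right). The dotted line is the ratio of all satellites (0.738) and the dashed line 1; HSATII points run from 0.478 to 0.686 and alpha satellite points from 0.685 to 0.958.

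The 3 alpha arrays with the most reads all had ratios below 1 and spread around the family's 0.790. The array on the unplaced contig Un_gl000226 (2 to 15004, plus strand) led both libraries with 5295 RPM in RNA and 6527 RPM in DNA, a ratio of 0.811 (0.788 to 0.835). The 2 arrays of chromosome X with the most reads differed from each other beyond counting error. The one at 58544096 to 58582011 (plus strand) had 4266 RPM in RNA and 5744 RPM in DNA, a ratio of 0.743 (0.719 to 0.767). The one at 61682015 to 61736573 (minus strand) had 3984 RPM in RNA and 5916 RPM in DNA, a ratio of 0.673 (0.651 to 0.696). Over all 150 tested alpha arrays longer than 10000 bp the ratio ran from 0.452 to 1.59, with 0 at least 2-fold higher and 1 lower. Shorter alpha loci were more scattered: the 98 of 2000 to 10000 bp ran from 0.273 to 5.03.

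Length went with the ratio in some families and not in others. HSATII was at 0.511 (0.479 to 0.545) under 500 bp, 0.528 (0.510 to 0.547) from 500 to 2000 bp and 0.538 (0.515 to 0.561) above that, with intervals that overlap. (CATTC)n ran the other way, 0.578 (0.544 to 0.614), 0.556 (0.517 to 0.597) and 0.509 (0.365 to 0.695), also with intervals that overlap. Its last class is 2 loci with 47 RNA reads. Beta satellite was lower in longer classes, from the shortest to the longest at 1.37 (1.14 to 1.63), 0.904 (0.830 to 0.984), 0.654 (0.625 to 0.684) and 0.640 (0.582 to 0.702) above 10000 bp. Within chromosome 19, beta satellite was at 1.06 (0.938 to 1.19) under 2000 bp and 1.07 (0.949 to 1.19) from 2000 bp on. Each of these values leans on 1 locus. The locus at 24246058 held 119 of 376 RNA reads and 42 of 1065 DNA reads under 2000 bp. That at 22073355 held 305 of 407 RNA reads and 502 of 1145 DNA reads from 2000 bp on. The 2 values without these loci were not computed. The part of chromosome makeup in the trend was not tested. SST1 was also lower in longer classes, at 2.17 (1.70 to 2.76), 0.668 (0.599 to 0.743) and 0.297 (0.138 to 0.569), but 82 of the 120 RNA reads of its shortest class come from a pair of loci described below. Alpha satellite under 500 bp, with 113 RNA and 293 DNA reads, was at 1.16 (0.922 to 1.44), above the 0.711 (0.655 to 0.771), 0.836 (0.820 to 0.853) and 0.779 (0.771 to 0.787) of the longer classes. Of its reads, 35 RNA and 89 DNA reads come from a locus of chromosome 3, and 23 RNA and 15 DNA reads from a locus of chromosome 5. The class without these 2 loci was not computed. REP522 was higher in longer classes, at 0.581 (0.411 to 0.805), 1.499 (1.21 to 1.85) and 3.26 (2.54 to 4.20), although 89 of the 135 RNA reads of its longest class belong to 1 locus.

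**Figure D4:**
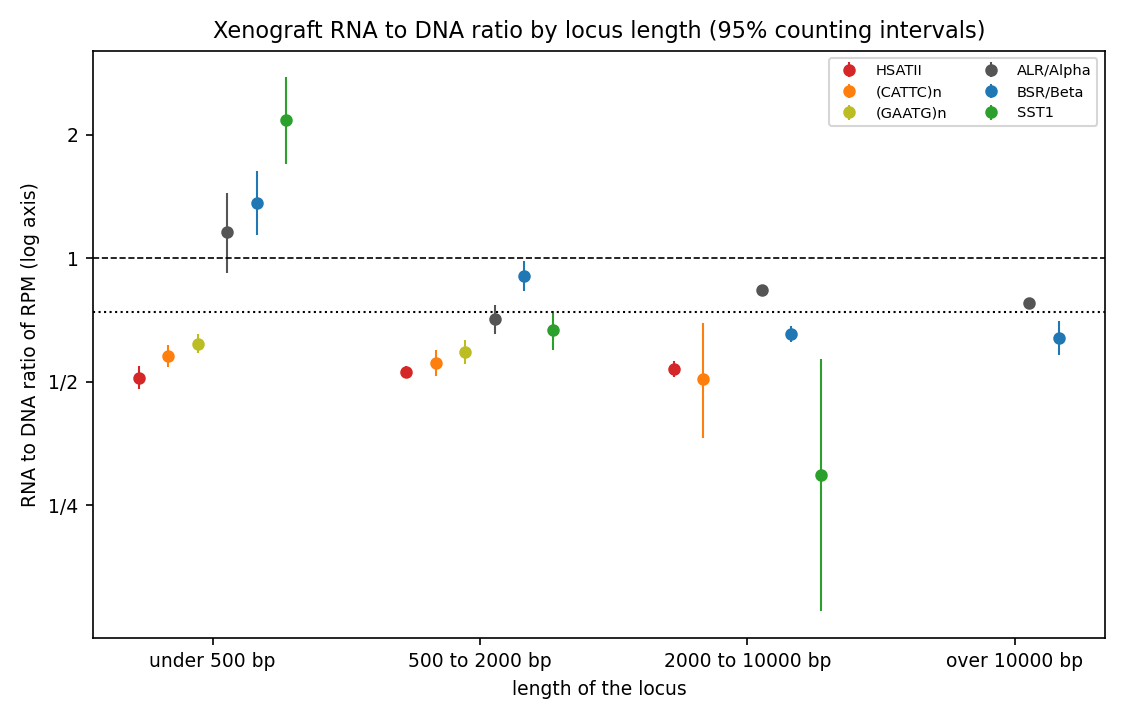
RNA to DNA ratio of summed RPM in the xenograft (log axis) with 95% counting intervals by length of the locus, for 6 families in classes with at least 100 DNA reads. The dotted line is the ratio of all satellites and the dashed line 1. HSATII stays between 0.511 and 0.538, whereas BSR/Beta and SST1 are above 1 under 500 bp and below it from 500 bp on.

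Strand, as the annotation gives it for each locus, left satellites as a whole at nearly equal ratios: plus-strand loci were at 0.737 (0.730 to 0.745) and minus-strand loci at 0.738 (0.728 to 0.747). The labels do not say which strand of a locus a read came from. Of 14 families with at least 100 DNA reads on each strand, the intervals overlapped in 9. HSATII was at 0.490 for plus and 0.556 for minus loci, but chromosomes differ in strand makeup. The counted loci of chromosome 10 are all on the minus strand, those of chromosome 2 mostly on the plus strand, and chromosome 16 has 86 plus and 70 minus loci. Within chromosome 16 the strands were at 0.466 (0.445 to 0.488) and 0.501 (0.470 to 0.534), which overlap. Alpha satellite was at 0.799 for plus and 0.776 for minus loci, and GSATII at 1.80 and 1.42. REP522 was at 2.31 for plus and 0.915 for minus loci, and its leading locus is on the plus strand. All pentamer loci are listed on the plus strand, so that (CATTC)n and (GAATG)n stand for the 2 orientations, with overlapping intervals (above).

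Beta satellite was higher on minus loci, 0.773 against 0.634 on plus loci. On chromosome Y the minus loci were at 0.976 and the plus loci at 0.693, with intervals apart, whereas on Un_gl000225, the contig with the most beta satellite reads, they were at 0.592 and 0.591. On Y, 2 minus loci at the minimum through RNA alone held 22 and 29 of the 329 minus-strand RNA reads. They held 6 and 32 of the 1010 DNA reads, and the strand without them was not computed. On chromosome 19 the minus loci were at 1.38 (1.25 to 1.52) and the plus loci at 0.570 (0.479 to 0.674). A locus at 22073355 to 22075704 had 283 RPM in RNA and 155 RPM in DNA, a ratio of 1.82 (1.57 to 2.10), and one at 24246058 to 24246714 had 110 RPM in RNA and 13.0 RPM in DNA, a ratio of 8.49 (5.93 to 12.4). Both lie on the minus strand. Without them the minus loci of chromosome 19 were at 0.728 (0.619 to 0.852) and the chromosome as a whole at 0.646 (0.575 to 0.724), against 1.06 (0.978 to 1.15) with them. The 2 lowest log2 ratios of all loci, −1.76 and −1.75, were also beta satellite of chromosome 19 on the minus strand. They lay at 24079259 to 24081021, with 7.42 RPM in RNA against 37.1 RPM in DNA, and at 23640699 to 23645566, with 9.28 RPM in RNA against 43.0 RPM in DNA. Elsewhere, the beta satellite locus with the most RNA was on the contig Un_gl000225, at 10354 to 22564 with 135 RPM in RNA and 209 RPM in DNA, a ratio of 0.648 (0.538 to 0.776).

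The 12 loci with the highest log2 ratios ran from 1.87 to 3.99, and all reached 20 RPM through RNA alone. A pair of GSATX loci on chromosome Y (19677922 to 19679160, minus strand, and 20500617 to 20501856, plus strand) led, each with 99.3 RPM in RNA against 1.55 RPM in DNA, or 107 reads against 5. Their counts are equal in both libraries, so the same reads may be counted at each, and together they hold 87.0% of GSATX RNA reads and 9.09% of its DNA reads. Next came the REP522 locus of chromosome 22 (22477210 to 22479804), with 82.6 RPM in RNA and 1.24 RPM in DNA, a ratio of 66.7 (25.2 to 250.1) from 89 and 4 reads. It holds 28.1% of REP522 RNA reads and 0.638% of the DNA reads. On chromosome 9, a TAR1 locus at 42805767 to 42806343 had 39.0 RPM in RNA against 2.79 RPM in DNA (ratio 13.99, 6.71 to 32.7). Another at 67340081 to 67340661 had 26.9 RPM in RNA against 2.79 RPM in DNA (9.66, 4.45 to 23.2). The REP522 locus at 43159272 to 43160588 had 45.5 RPM in RNA against 8.36 RPM in DNA (5.44, 3.33 to 9.05). The 3 TAR1 loci at least 2-fold higher hold 42.2% of TAR1 RNA reads and 7.12% of its DNA reads.

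The other 6 of the 12 were 2 GSATII loci, 2 of BSR/Beta, 1 of LSAU and 1 of alpha satellite. The GSATII loci at chromosome 22, 16096912 to 16097983, and on Un_gl000244, 15910 to 16982, each had 45 RNA reads, against 23 and 20 DNA reads. They are 1072 and 1073 bp long and had equal RNA counts in each RNA library, so the same reads may be counted at each. The alpha satellite locus, at chromosome 12, 37919740 to 37923638, had 48.2 RPM in RNA and 9.59 RPM in DNA, a ratio of 5.03 (3.16 to 8.12). The LSAU locus of chromosome 18 (111676 to 112224) and a beta satellite locus of chromosome Y (7932442 to 7933023) had equal counts, 22 RNA and 6 DNA reads. That single LSAU locus held 44.0% of the RNA reads of the family, and LSAU was at 0.451 (0.292 to 0.674) without it.

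Of 16 GSATII loci at the minimum, 14 had a ratio above 1 and 11 an interval wholly above it, with a median log2 ratio of 0.89. RNA alone brought 7 of these to the minimum, including all 5 that were at least 2-fold higher. Besides the 2 like loci named above, those 5 include their neighbours at 16095854 on chromosome 22 and 16996 on Un_gl000244. These are 1046 and 1049 bp long with 32 and 33 RNA reads, so they too may share reads. Of the 9 with at least 20 RPM in DNA, 7 had a ratio above 1, 5 an interval above it and 0 a 2-fold difference, and their median log2 ratio was 0.70. The most RNA was at chromosome 2, 132511066 to 132514594, with 69.6 RPM in RNA and 36.2 RPM in DNA, a ratio of 1.92 (1.42 to 2.59). On chromosome 9, loci at 45435147 to 45439527 and 68301970 to 68306363 had 54.7 and 52.9 RPM in RNA against 31.9 and 27.2 RPM in DNA. The 2 GSATII loci with the most DNA had intervals that held 1. That of chromosome Y (13252194 to 13257268) was at 0.783 (0.524 to 1.14) and that of chromosome 14 (19828185 to 19830737) at 0.915 (0.626 to 1.31). Chromosomes 2, 4, 9 and 21 were at 1.65 to 1.92, whereas chromosomes Y, 14 and 12 were at 0.677 to 0.949. SST1 was at 1.84 (1.44 to 2.36) on Y and 0.460 to 0.796 on chromosomes 4, 9, 19 and 20 and a contig of chromosome 4. On Y, a pair of 382 bp SST1 loci with equal counts (6294586 to 6294967 and 9575413 to 9575794) each had 38.04 RPM in RNA and 8.36 RPM in DNA, a ratio of 4.55 (2.73 to 7.69). This pair holds 82 of the 107 RNA reads of SST1 on Y, and without it Y was at 0.624 (0.389 to 0.967), within the range of those chromosomes.

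Among the pentamers, no tested locus had a ratio above 1, and 3 of 12 (CATTC)n loci and 1 of 4 (GAATG)n loci were at least 2-fold lower, against 11.2% of all loci. DNA alone brought 9 of the 12 and all 4 to the minimum, the lower ones included. Of all 101 loci that DNA alone brought to the minimum, 30 were at least 2-fold lower, so the like share is well above 11.2%. The (CATTC)n locus with the most RNA was at chromosome 2, 89852304 to 89854344, with 34.3 RPM in RNA and 51.1 RPM in DNA, a ratio of 0.672 (0.457 to 0.965). Its neighbour at 89850111 to 89851747 had the same DNA level and 24.1 RPM in RNA, a ratio of 0.472 (0.300 to 0.717), which overlaps. The (GAATG)n locus with the most DNA, at chromosome Y, 13845484 to 13846764, had 5.57 RPM in RNA against 22.3 RPM in DNA, a ratio of 0.2498 (0.0887 to 0.571). The 3 (GAATG)n loci with the most RNA, each under 20 RPM, had ratios of 1.12 to 1.64 with intervals that held 1. Pentamers in a block with an HSATII locus did not stand apart from the others. (CATTC)n was at 0.580 (0.548 to 0.613) in such blocks and 0.542 (0.499 to 0.588) elsewhere, and (GAATG)n at 0.614 (0.585 to 0.643) and 0.578 (0.524 to 0.638).

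In the cultures, RNA did not follow DNA in this way. To turn the family makeup of RNA into that of DNA, 24.3% of satellite reads would have to change family in the culture before, 6.37% in the xenograft and 45.0% in the culture after. Over the same 433 loci, Spearman's rho between RNA and DNA was 0.436 in the culture before, 0.894 in the xenograft and 0.0689 in the culture after. The RNA reads behind these values were 311, 63953 and 1223 at those stages, and the part of depth in the difference was not tested. Over the 15 families with at least 100 DNA reads at each stage, the ratio ran from 0 (SAR) to 3.24 (REP522) in the culture before. It ran from 0.438 (SAR) to 6.70 (GSATX) in the xenograft, and from 0.000317 (HSATII) to 16.04 (GSATX) in the culture after.

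For HSATII the ratio was 0.0368 (0.00759 to 0.108) in the culture before, 0.529 in the xenograft and 0.000317 (8.02e-06 to 0.00177) in the culture after. At the xenograft ratio, the RNA library of the culture before would have held 43.1 HSATII reads, and it held 3. That of the culture after would have held 1668, and it held 1. Alpha satellite was at 0.482 (0.434 to 0.534) in the culture before, 0.790 in the xenograft and 0.0819 (0.0776 to 0.0862) in the culture after. In the same order of stages, (GAATG)n was at 0.226 (0.0613 to 0.582), 0.607 and 0.0111 (0.00507 to 0.0211), and (CATTC)n at 0.141 (0.0289 to 0.413), 0.567 and 0.0176 (0.00939 to 0.0302). All satellites together were at 0.590 (0.550 to 0.633), 0.738 and 0.125 (0.121 to 0.130).

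The gamma and subtelomeric families did not share 1 order of stages. GSATII was at 0.560 (0.412 to 0.745) in the culture before, 1.60 in the xenograft and 3.65 (3.34 to 3.99) in the culture after. In the same order, GSATX was at 1.55 (0.695 to 3.01), 6.70 and 16.04 (12.5 to 20.7), and TAR1 at 0.366 (0.257 to 0.505), 1.85 and 1.81 (1.29 to 2.48). REP522 was at 3.24 (2.19 to 4.66), 1.52 and 3.17 (2.57 to 3.90), and GSAT at 2.88 (1.72 to 4.58), 1.25 and 2.09 (1.55 to 2.78), both lowest in the xenograft. Of the 25 loci at least 2-fold higher in RNA than DNA in the xenograft, 11 had more RPM of RNA than of DNA in the culture before and 24 in the culture after. Over all 473 loci, 82 (17.3%) did so before and 60 (12.7%) after. A single RNA read was worth 6.36 RPM before and 4.17 RPM after, against 0.230 and 0.325 RPM for a DNA read. In the cultures a few RNA reads can therefore put a locus on this side. The 25 also include the GSATX and SST1 pairs with equal counts, which may share reads. The summed ratio of the 25 was 0.772 (0.620 to 0.951) in the culture before, 5.91 (5.36 to 6.51) in the xenograft and 12.6 (11.5 to 13.9) in the culture after. The value before leans on 3 TAR1 loci of chromosome 9, at 42805767, 67340081 and 69724087. They held 862, 668 and 586 of the 3263 DNA reads of the 25 in the culture before, and the sum without them was not computed. In the same order of stages, the 53 lower loci were at 0.215 (0.120 to 0.356), 0.420 (0.404 to 0.437) and 0.0364 (0.0278 to 0.0469), and 4, 0 and 0 of them had more RNA than DNA. Both sets were chosen by their xenograft ratios, so the choice itself fixes on which side of 1 their xenograft values lie. Satellites were 0.854% of DNA reads in the culture before, 9.88% in the xenograft and 10.4% in the culture after, and the part of this in the ratios of the culture before was not tested.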

How the data were processed

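The authors deposited a single table in RPM, with 1 row per satellite locus and the family, coordinates and strand in the row name. Coordinates are hg19, the genome build named per the submitters' processing notes. The sources used here do not give the aligner, how strand, mouse reads and reads with several matches were handled, or which reads make up a library total. In every library, 100% of nonzero values of the deposited RPM were whole multiples of a single read within 0.01 reads. Ratios are xenograft RNA over xenograft DNA, with exact conditional binomial 95% intervals on these reads.

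No group has replicates, so no test across samples was made. A locus entered with 20 RPM on either side, a pseudocount of 5 RPM was added before log2, and 2-fold was the size rule. The loci and families named are HSATII and every family, the 12 highest and 12 lowest log2 ratios, the 3 loci with the most RNA and the 3 with the most DNA in 7 families, and chromosomes with 100 DNA reads in HSATII and alpha satellite. Other loci and strata were chosen after their values were seen. The members and lists were chosen with earlier results of these data known. Alternatives were TMM (edgeR 4.0.16), size factors (DESeq2 1.42.0), other totals, pseudocounts and minimums, leading or identical loci left out, and a count test. That test, an exact binomial one on each locus with p-values adjusted by Benjamini-Hochberg, compares these libraries, not the conditions, and called 44 of 6739 loci higher and 135 lower at 0.05. Ratios and intervals were computed in Python 3.11.15 (NumPy 2.4.6, pandas 2.3.3, SciPy 1.17.1), scaling factors in R 4.3.3, and figures in matplotlib 3.10.9; the interval and size rule were tested on simulated data.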

Additional observations from a re-analysis of the deposited data

Results flagged for a closer look

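For 6 families the RNA to DNA ratios of xenograft and culture before lay on opposite sides of 1, and neither counting interval held 1. These are single libraries, and the differences were not tested. ACRO1 was at 0.717 in the xenograft, against 13.4 before it, D20S16 at 0.700 and 9.69, SATR2 at 0.741 and 3.11, and SST1 at 0.767 and 1.52. GSATII and TAR1 went the other way, at 1.60 and 1.85 in the xenograft, against 0.560 and 0.366 before it. DNA moved as well as RNA. From the culture before to the xenograft, TAR1 went from 235 to 209 RPM in RNA and from 643 to 113 RPM in DNA. GSATII went from 305 to 904 RPM in RNA and from 545 to 565 RPM in DNA. ACRO1 went from 203 to 849 RPM in RNA and from 15.2 to 1183 RPM in DNA. SATR2 and SST1 also had more of both in the xenograft. D20S16 had nearly equal RNA, at 44.5 RPM before and 46.4 RPM in the xenograft, while its DNA went from 4.59 to 66.2 RPM. The culture before rests on 21 to 48 RNA reads for ACRO1, SATR2, SST1, GSATII and TAR1 and on 7 for D20S16. Its DNA rests on 66 reads for ACRO1 and 20 for D20S16. No family was on opposite sides of 1 in the xenograft and the culture after by this rule.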

How the results depend on the processing

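Scaling moved every RNA to DNA ratio by a common factor of 1.36 (satellite reads), 1.21 (TMM), 1.201 (size factors) or 0.972 (totals without satellite reads). HSATII then stood at 0.717, 0.641, 0.635 and 0.514, below 1 in each. Scaled to satellite reads, HSATI (1.13), SATR1 (1.104), ALR/Alpha (1.07), SST1 (1.04) and SATR2 (1.005) turned to above 1, as did HSATI under TMM (1.01) and size factors (1.004). Only the interval of ALR/Alpha then lay wholly above 1, and the others held it. Families with intervals below 1, 14 as reported, became 6 (satellite reads), 8 (TMM), 8 (size factors) and 12 (1 locus of each identical set). Without the 2 loci with the most RNA, a choice made after seeing the data, GSATX (0.959), REP522 (0.9003) and GSAT (0.934) turned to below 1. Left out in the same way, the pair on chromosome Y brought SST1 there to 0.624. With 1 locus of each identical set, D20S16 turned to 1.04, and the cause was not tested. Loci at least 2-fold higher and lower, 25 and 53, became 44 and 13 (satellite reads), 39 and 16 (TMM) and 39 and 17 (size factors). They were 42 and 119 with a minimum of 5 RPM or with none, 7 and 28 with 50 RPM, and 44 and 135 by the count test. With 20 RPM asked of DNA 2 were higher, with 20 RPM asked of RNA 23 were lower, and with no pseudocount 86 were lower. No paired analysis was possible because each group is 1 library. Low depth limits families and loci of few reads.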
